A study of Drosophila melanogaster with 12 samples.

Results

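The genes lola and mod(mdg4) were chosen by their exact symbols, as Drosophila BTB genes known for many alternative 3′ ends and for trans-splicing. They are 2 of the 16595 genes that the deposited gene lists hold, and both lie on the list of 2000 genes given a splicing change (AS list), none on the list of 14595 genes without one (non-AS list). The 12 RNA sequencing libraries behind the data are computer simulations of S2 cells, a Drosophila line derived from late embryos. In 3 control libraries the modelled cells received a non-targeting siRNA. The other 9 model an siRNA knockdown of the splicing factor PSI (P-element somatic inhibitor), with 3 libraries for a planted splicing change of 60%, 3 for 40% and 3 for 20%. The same 3 control libraries serve all 3 levels. The authors deposited 18 tables with 1 score per gene, from 6 programs (Cufflinks, JUM, MAJIQ, MISO, rMATS and Whippet) at 3 levels. Each score combines the libraries of both arms, so values per library, a spread between replicates and tests over samples could not be had, and the read depth is unknown. No cell was treated, and the scores say how each program rated a planted change, not what PSI does to these genes.

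Both genes encode proteins with a shared amino-terminal BTB domain, a surface through which such proteins pair, followed by a carboxy-terminal part that differs between isoforms. lola (longitudinals lacking) encodes transcription factors that guide axons in the embryonic nervous system, most of them with an isoform-specific zinc finger. mod(mdg4) (modifier of mdg4) encodes chromatin proteins. One isoform acts with su(Hw) and Cp190 in the insulator of the gypsy retrotransposon, and another holds homologous chromosomes together in male meiosis. In both genes some 3′ exons are transcribed separately and joined to the common 5′ exons by trans-splicing, that is, between separate precursor RNAs. For mod(mdg4) some of these 3′ exons lie on the opposite DNA strand.

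In the Ensembl release 115 annotation of BDGP6.54, which is not the dm3 build named in the submitters' processing notes, lola (FBgn0283521) lies on the minus strand of arm 2R from 10481894 to 10543291. It has 24 transcripts with 24 different intron chains, where an intron chain is the full set of introns of a transcript. The 24 transcripts begin at 4 positions and end in 21 distinct last exons. Only 3 exons are in every transcript. A single 5′ splice site behind these exons is used by 23 of the 24 transcripts and is joined to 18 different 3′ splice sites, across introns of 4819 to 47786 bases (median 21468). The coding bases found in every transcript number 1363, out of 1395 to 2910 per transcript.

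mod(mdg4) (FBgn0002781) lies on the minus strand of arm 3R from 21350846 to 21377401 in the same annotation. It has 22 transcripts with 22 intron chains, and all start at 1 position and share their first 4 exons. All exons counted here lie on the minus strand, so no 3′ exon from the opposite strand is included. The 5′ splice site of the fourth exon is used by all 22 transcripts and is joined to 22 different 3′ splice sites, across introns of 1979 to 23681 bases (median 17275). The transcripts end in 21 distinct last exons. They share 1207 coding bases out of 1419 to 1809. lola thus varies at both ends and mod(mdg4) at the 3′ end alone in this annotation. RefSeq lists more transcripts for each gene, 25 for lola and 31 for mod(mdg4).

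**Figure D1:**
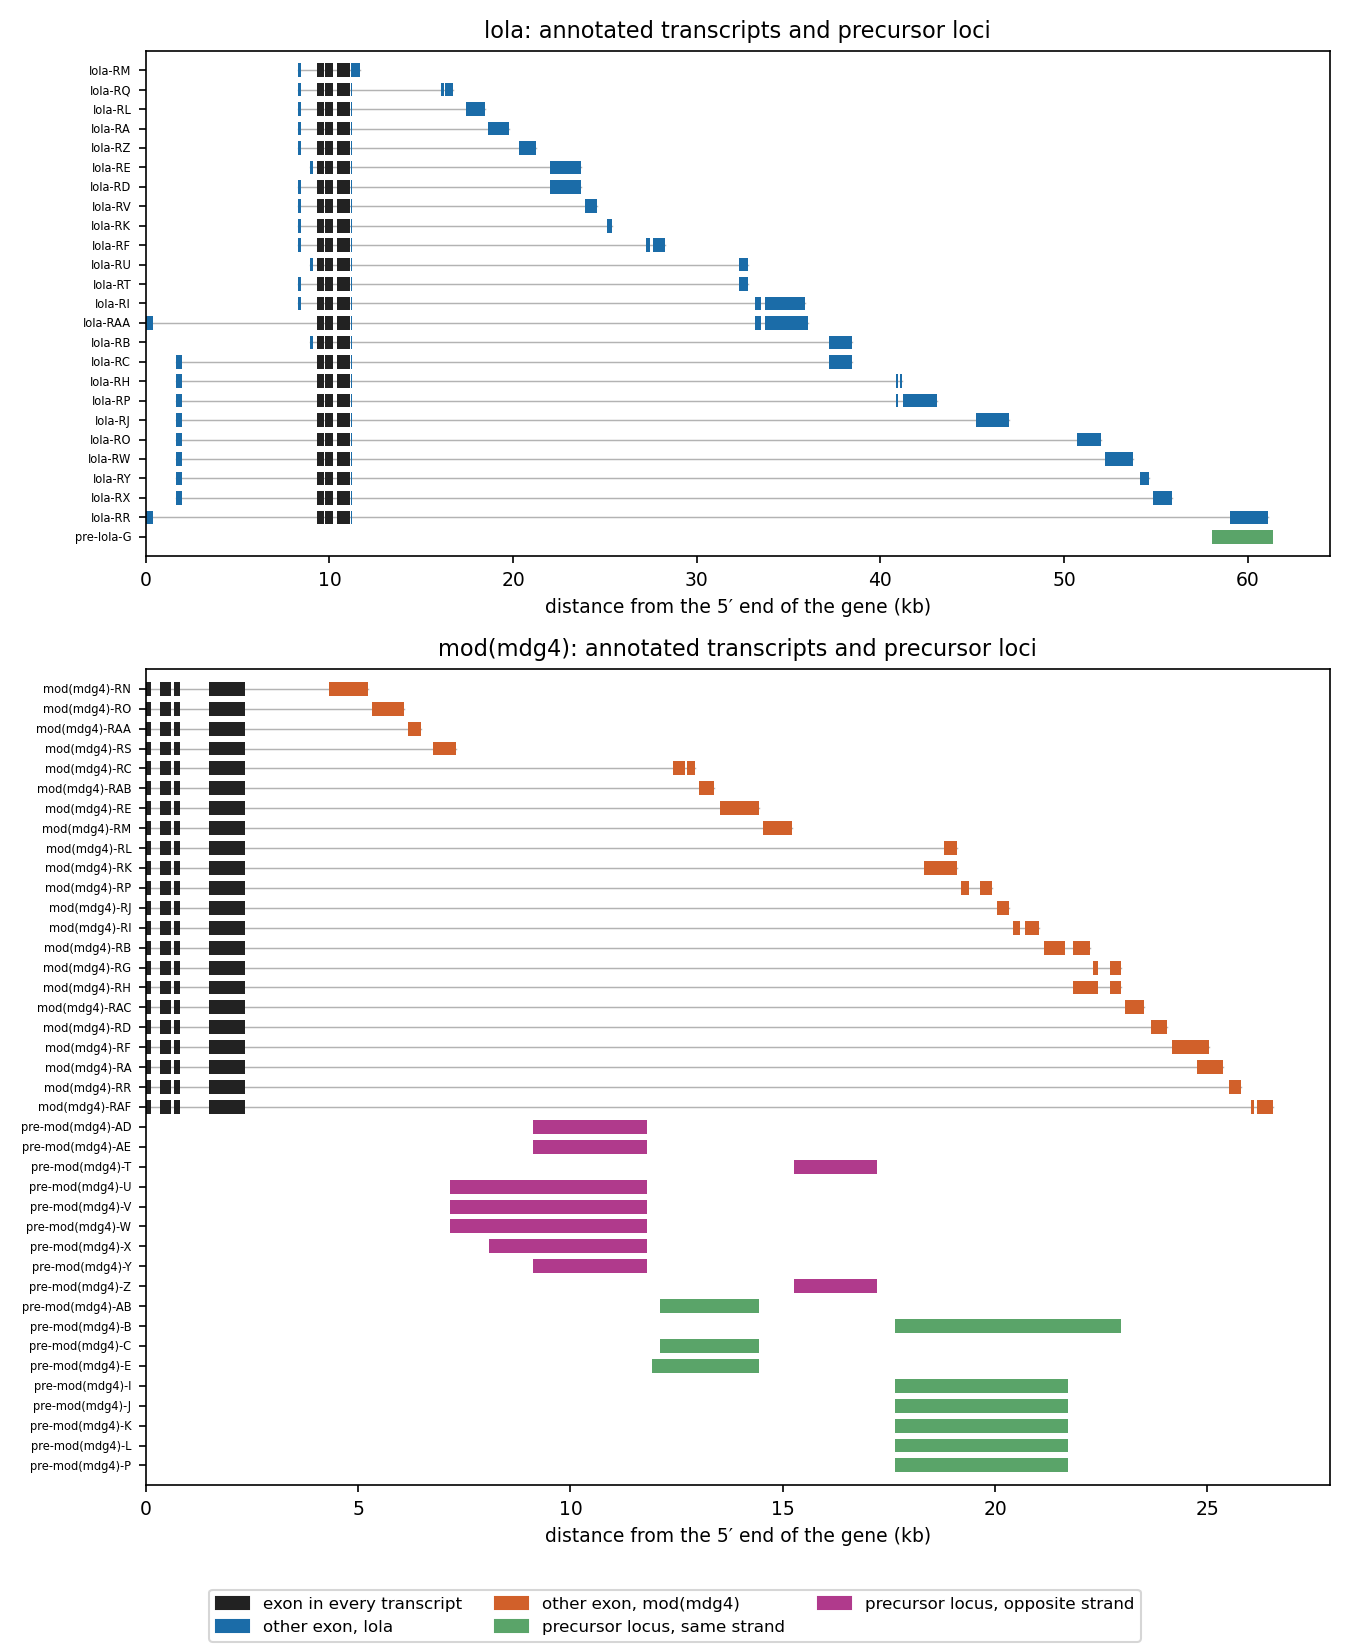
Annotated transcripts of lola (top) and mod(mdg4) (bottom), 1 per line, drawn by distance in kb from the 5′ end of the gene. Black boxes are exons found in every transcript, blue or orange boxes are other exons, and the lowest lines show precursor loci present in the deposited lists on the same (green) or opposite (purple) strand. The 24 lola and 22 mod(mdg4) transcripts fan out from a few common exons to 21 last exons each.

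This fan of introns from 1 splice site sets the 2 genes apart from most annotated genes. Of the 16333 genes with a match in the annotation, Dscam1, which encodes a neuronal and immune recognition receptor, has the most introns from 1 donor with 48. mod(mdg4) with 22 and lola with 18 take the next places, and pip, which encodes a sulfotransferase of dorsoventral patterning, follows with 11. By number of intron chains lola shares rank 6 and mod(mdg4) rank 9. The 5 genes with the most are Dscam1 (75), the sodium channel gene para (57), CG45186 (31, current symbol Svil), CAP (27) and trol (25).

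**Figure D2:**
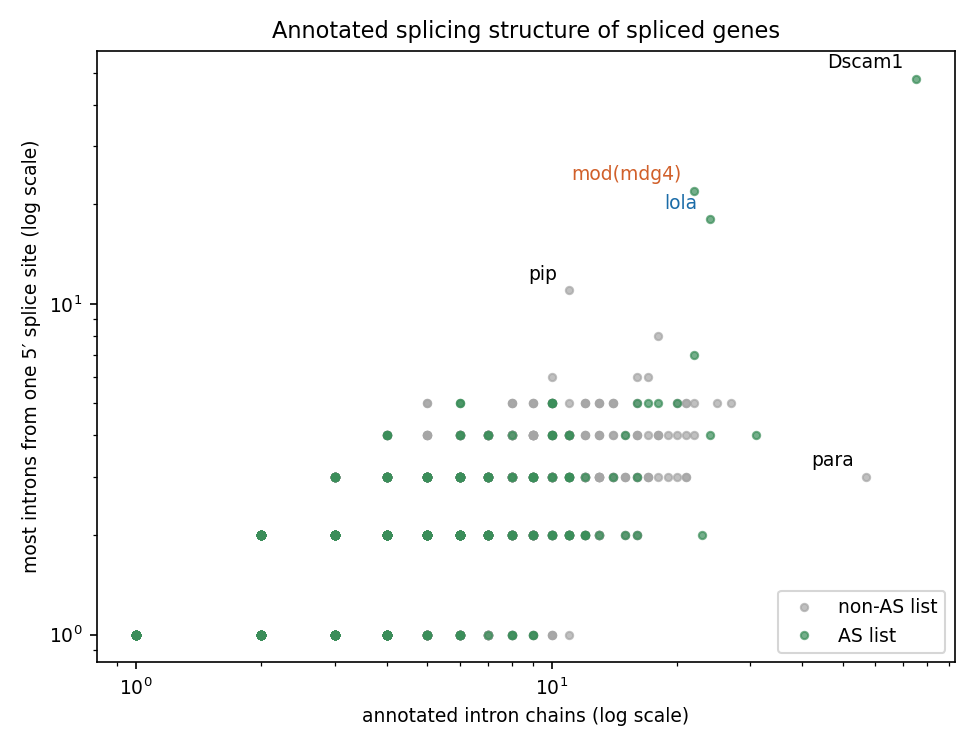
Each point is a spliced gene matched to the annotation, by its number of intron chains (x axis, log scale) and the most introns that leave from 1 of its 5′ splice sites (y axis, log scale), coloured by list. mod(mdg4) at 22 and lola at 18 lie above every other gene but Dscam1 at 48 on the y axis.

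The first question was in how many tables each gene passed a customary threshold, a score of 0.95 or, for MISO, a Bayes factor of 10. A Bayes factor is the weight of evidence for a change over none. mod(mdg4) was listed in all 18 tables and passed in 12: 5 of 6 programs at 60%, 4 at 40% and 3 at 20%. lola was listed in 15 tables and passed in 10: 4 at 60%, 4 at 40% and 2 at 20%. Of the 2000 AS-list genes 408 (20.4%) passed in 10 or more tables and 324 (16.2%) in 12 or more, the median being 0, and no non-AS-list gene did either. The median was higher for AS-list genes with more annotated splicing. It was 9 tables with 2 to 9 intron chains, 13 with 10 or more and 11 with 22 or more. The groups with 10 or more and 22 or more include lola and mod(mdg4) themselves. The 2 genes were called alike in 12 of the 18 tables. In some of these neither gene passed: the 3 MISO tables, which did not list lola, and Cufflinks at 20%. The 6 tables with different calls were all 3 rMATS tables, 2 from Whippet and 1 from MAJIQ.

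**Figure D3:**
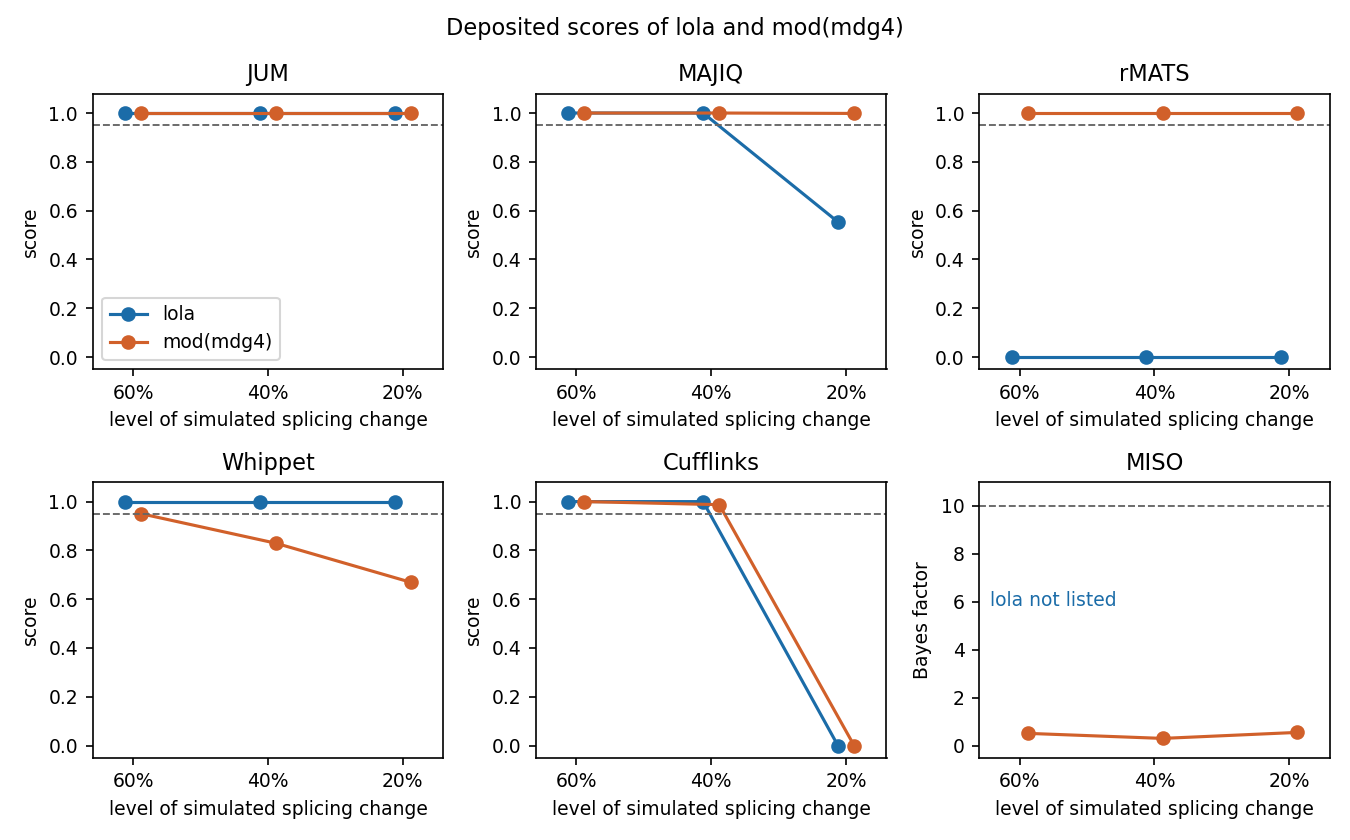
Deposited scores of lola (blue) and mod(mdg4) (orange) against the level of simulated splicing change, 1 panel per program, with the customary threshold as a dashed line (0.95, or a Bayes factor of 10 for MISO). Each point is 1 score for a whole comparison, without error. rMATS gives mod(mdg4) 1 and lola 0 at each level, while Whippet gives lola 1 at each level and mod(mdg4) 0.95, 0.829 and 0.669.

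JUM, which groups splice junctions that share a splice site without using annotated transcripts, did not separate the genes. Both lola and mod(mdg4) scored 1, the highest value, at every level in the authors' deposited tables for JUM. At the 60% level 561 of the 1515 genes in that table scored 1, and 543 of these were on the AS list. At the 20% level 421 genes did, 416 of them on the AS list. A JUM score past the threshold was itself common, at 43.3% of the listed genes for the 60% change, 41.6% for 40% and 38% for 20%. Of the AS-list genes present, 91.9%, 91% and 84.3% passed, so both genes were called like most AS-list genes that JUM listed. Of all 2000 AS-list genes, listed or not, 28.3%, 27.9% and 25.8% passed in JUM.

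MAJIQ, which also works from splice sites with several alternative junctions, separated the genes at the 20% level alone. Both genes scored 1 at the 60% and 40% levels in the authors' deposited tables for MAJIQ. At the 20% level the authors' deposited table gave mod(mdg4) 0.998341 and lola 0.554. MAJIQ passed 33% of its listed genes at 60%, 30.9% at 40% and 20.1% at 20%. Among the 508 AS-list genes that passed in JUM at the 20% level and were listed by MAJIQ, 341 (67.1%) passed in MAJIQ too, and 66 (13%) scored no higher than lola. Few non-AS-list genes scored as high as lola at that level, 36 or 2.89% of those listed, against 68% of the AS-list genes there.

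rMATS, which tests a fixed set of simple event types such as skipped exons, showed the largest difference in score between the genes. mod(mdg4) scored 1 at all 3 levels in the authors' deposited tables for rMATS. lola scored 0 at all 3 levels in the authors' deposited tables for rMATS, so it was listed, but near the bottom. Only 8 genes at the 60% level, 10 at 40% and 9 at 20% scored lower, all with negative values whose origin was not tested. A score of 1 was given to 378 of the 507 listed AS-list genes and to 2 of the 749 listed non-AS-list genes at the 60% level. A score of 0 was given to 45 of these AS-list genes (8.88%) and to 218 of the non-AS-list genes (29.1%). rMATS passed 35.8% of its listed genes at 60%, 34% at 40% and 29.8% at 20%.

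The zero of lola in rMATS was uncommon among genes that other programs called. At the 60% level 392 AS-list genes passed in JUM and Whippet and were listed by rMATS, and 8 of them (2.04%), lola included, scored 0 in rMATS. At the 40% level it was 18 of 379 (4.75%) and at the 20% level 19 of 351 (5.41%). These subsets were formed after the scores of lola were known, so the counts describe its place and test nothing.

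Whippet, which scores nodes of a splice graph, gave the reverse order. The authors' deposited tables for Whippet gave lola 1 at all 3 levels. They gave mod(mdg4) 0.95 at 60%, exactly at the threshold, 0.829 at 40% and 0.669 at 20%. lola was thus at the top of the scale throughout, while mod(mdg4) had a lower score at each smaller level. At the 20% level 43.9% of the listed non-AS-list genes scored at least as high as mod(mdg4), and 58.6% of the AS-list genes in the table. At the 60% level these shares were 4.27% and 56.4%. Whippet passed 26.4% of its listed genes at 60%, 24.7% at 40% and 21% at 20%.

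A Whippet score this low was also uncommon beside calls by others. Of 350 AS-list genes that passed in JUM and rMATS at the 40% level and were listed by Whippet, 336 (96%) passed in Whippet, and 7 (2%), mod(mdg4) included, scored no higher than mod(mdg4). At the 20% level 302 of 320 (94.4%) passed and 6 (1.88%) scored no higher. These subsets too were formed after the scores were known.

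Cufflinks, which estimates whole transcripts, placed both genes at or near the top at the 2 larger levels and at 0, its lowest value, at the smallest. At the 60% level the authors' deposited table for Cufflinks gave both genes 0.999741, the highest value in it, which 415 of 14361 genes reached. At the 40% level the authors' deposited table gave lola 0.999637, again the highest value, and mod(mdg4) 0.987. At the 20% level the authors' deposited table gave both genes 0. Cufflinks passed 3.56% of its listed genes at 60%, 2.9% at 40% and 1.36% at 20%. A Cufflinks score of 0 was the usual one, held by 1371 of 1822 AS-list genes in the table (75.2%) at the smallest level. Among the 484 AS-list genes that passed in JUM at that level and were listed by Cufflinks, 178 (36.8%) scored 0 and 155 (32%) passed.

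MISO listed mod(mdg4) at each level and lola at none. The Bayes factors of mod(mdg4) in the authors' deposited tables for MISO were 0.52 at 60%, 0.31 at 40% and 0.56 at 20%. All 3 are below 1, and they lay in the middle of the MISO scores of both lists: at 60%, 46.5% of the AS-list genes in the table and 42.1% of the others scored at least as high. MISO passed few of its listed genes, 5.47% at 60%, 1.52% at 40% and 0.635% at 20%. Most genes called by JUM are missing from them: 105 of 566 AS-list genes past the JUM threshold (18.6%) were listed by MISO at the 60% level.

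**Figure D4:**
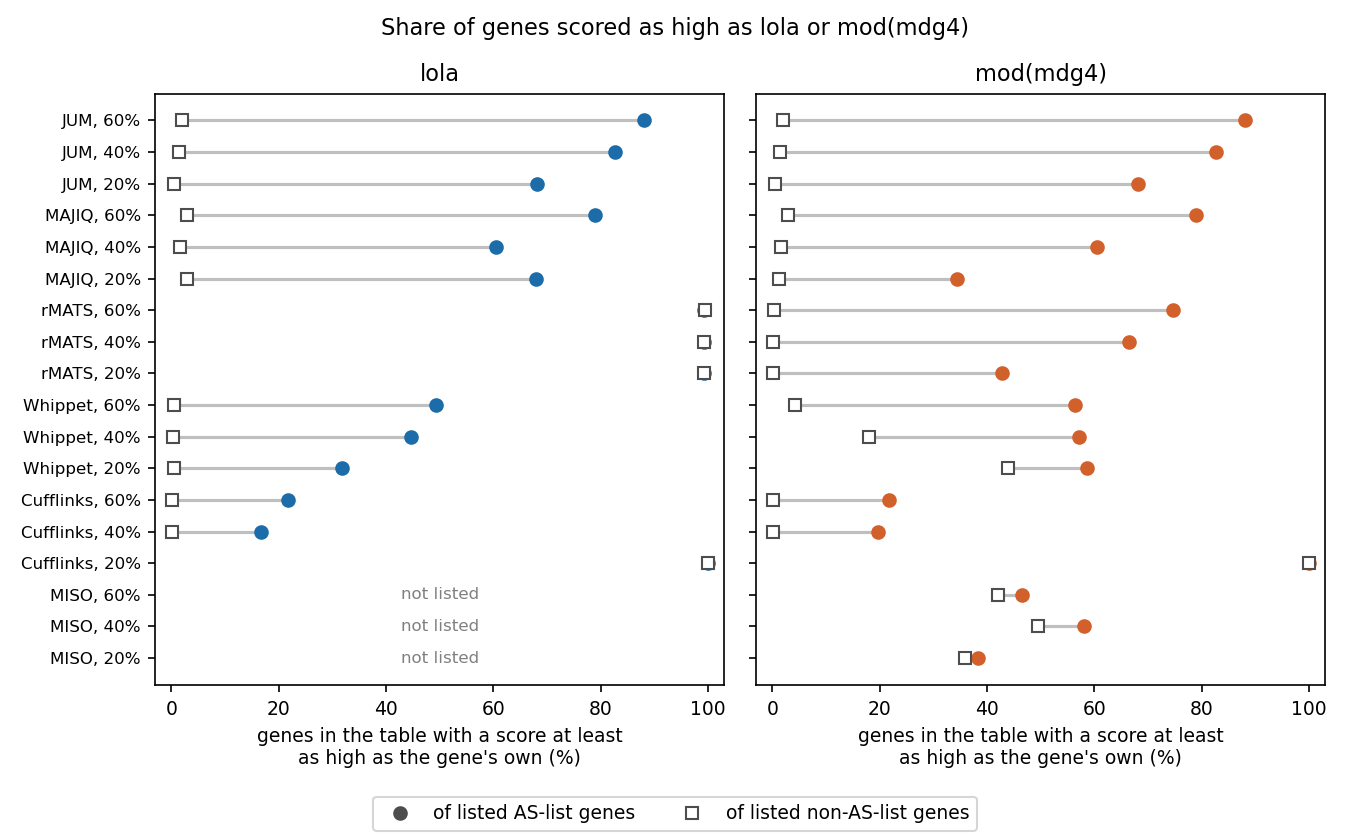
Percent of the AS-list genes (filled circles) and of the non-AS-list genes (open squares) in each table whose score was at least as high as that of lola (left) or mod(mdg4) (right). A wide gap marks a score that a larger share of AS-list than of non-AS-list genes reached, as in JUM at 60% (88.1% and 2%). A square near 0 marks a score that few non-AS-list genes reached, also where the gap is narrower, as in Cufflinks at 60% (21.8% and 0.136%). Circle and square both lie at 99% or more where the score was 0, as for lola in rMATS and both genes in Cufflinks at 20%.

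The trans-spliced 3′ exons have entries of their own in the annotation, called precursor loci (pre-mod(mdg4) and pre-lola, each with an isoform letter). Within mod(mdg4) the annotation holds 23 such loci, 9 on the plus strand and 14 on the minus strand, and 18 of them were matched to a symbol in the deposited lists. All 18 lie on the non-AS list, while mod(mdg4) itself lies on the AS list. Of the 21 last exons of mod(mdg4), 13 overlap an exon of a precursor locus on the same strand. Some of these exons, such as those of isoforms N, O and AA, overlap only loci without a symbol in the deposited lists. Where the locus is in the lists, reads from the exon cannot be assigned to one entry or the other from the scores. For lola there is 1 precursor locus, pre-lola-G, which overlaps 1 of the 21 last exons and is also on the non-AS list.

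The programs differed in which of these loci they listed. JUM, MAJIQ and rMATS listed none of the 18 mod(mdg4) precursor loci. Cufflinks listed 8 at each level, all on the plus strand, opposite to mod(mdg4). MISO listed 6, all on the minus strand. Whippet listed 2 or 3 per level, with scores of at most 0.651 in the authors' deposited table. The programs also differ in how many of all 16595 genes they list. At the 60% level Cufflinks listed 14361, Whippet 3622, MAJIQ 1993, JUM 1515, rMATS 1256 and MISO 329. The absence of the loci from JUM, MAJIQ and rMATS is therefore not particular to these loci.

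In MISO and Cufflinks, groups of listed loci with a common start carried a common score, whereas in Whippet pre-mod(mdg4)-T and -Z, which also share a start, did not. The 6 loci that MISO listed, pre-mod(mdg4)-B, -I, -J, -K, -L and -P, all start at position 21359768 of arm 3R. All 6 had a Bayes factor of 0.52 at the 60% level in the authors' deposited table for MISO, equal to that of mod(mdg4). They equalled it again at the 20% level, with 0.56 in the authors' deposited table, but had 0.11 at the 40% level, where mod(mdg4) had 0.31. At the 60% level 10 of the 329 genes in the MISO table had this value of 0.52, so mod(mdg4) and its precursor loci were 7 of these 10. The source of the equal values was not tested.

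In Cufflinks 7 of the 8 listed loci, all those that start at position 21365609, shared 1 score, 0.875 at the 60% level, 0.44 at the 40% level and 0 at the 20% level in the authors' deposited table. The eighth, pre-mod(mdg4)-T, starts at 21360176 on the plus strand and was the only precursor locus past the threshold in any table. It scored 0.999741 at the 60% level, 0.956 at the 40% level and 0.0963 at the 20% level in the authors' deposited table for Cufflinks. pre-mod(mdg4)-T thus passed in the same Cufflinks tables as mod(mdg4), although it is on the non-AS list. Of the 14595 non-AS-list genes 426 (2.92%) passed in 1 or more tables. pre-lola-G scored 0 in Cufflinks at each level in the authors' deposited table, and its MAJIQ scores were near 0.

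Genes with as many intron chains gave a background for the 2 genes. There are 12 genes with 22 or more intron chains, and 7 of them (58.3%) lie on the AS list. That list holds 12.1% of all matched genes. The limit of 22 is the chain count of mod(mdg4), so lola and mod(mdg4) are in the set by choice. Without them 5 AS-list and 5 non-AS-list genes remain. The other 5 AS-list genes are Dscam1, CG45186, heph, mtd and Zasp52. heph encodes a polypyrimidine tract-binding protein, itself a splicing regulator, and Zasp52 a muscle Z-disc protein. All 7 passed in JUM and MAJIQ at the 60% level, and 7 passed in Whippet. In rMATS 3 passed at that level, mod(mdg4), heph and mtd. Dscam1 and CG45186 were not listed by rMATS, and Zasp52 scored 0.343 with rMATS at the 60% level in the authors' deposited table. lola was thus the only one of the 7 with an rMATS score of 0, and mod(mdg4) the only one under the Whippet threshold at the 40% and 20% levels. At the 20% level none of the 7 passed in Cufflinks. Of the 5 non-AS-list genes in the set, CAP passed in 4 tables, para in 3 and trol in 1, while Ank2 and slo passed in none. Over all non-AS-list genes 2.92% passed in 1 or more tables.

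With the limit set lower, at 10 or more intron chains, 44 of 207 genes (21.3%) lie on the AS list. Of these 44, 42 (95.5%) passed in JUM at the 60% level and 42 at the 20% level. For rMATS it was 37 (84.1%) and 35 (79.5%), for Whippet 42 (95.5%) and 41 (93.2%). For Cufflinks it was 33 (75%) and 6 (13.6%), and for MISO 2 (4.55%) and 0. Of all matched AS-list genes, 28.2% and 25.6% passed in JUM at the 60% and 20% levels, and 20.7% and 17.7% in rMATS. In Whippet it was 43.2% and 34.8%, in Cufflinks 24.1% and 9.22%, and in MISO 0.608% and 0.0507%. Of the 771 AS-list genes with 2 to 9 intron chains, 65.8% and 59.5% passed in JUM, and 47.5% and 40.1% in rMATS. For these genes it was 75.7% and 62.9% in Whippet, 46.3% and 20.9% in Cufflinks, and 1.3% and 0.13% in MISO. These shares count genes a program did not list as not called. Of the AS-list genes that rMATS listed, 81.9% passed at the 60% level. lola and mod(mdg4) were both among those without a Cufflinks call at the 20% level.

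Of 18 BTB transcription and chromatin factors, a list chosen with earlier results known, 5 (27.8%) lie on the AS list, namely lola, mod(mdg4), lolal, mamo and bab1. The share over all 16595 genes was 12.1%. Without lola and mod(mdg4) it is 3 of 16. All 5 passed in 1 or more tables, as did 948 (47.4%) of the 2000 AS-list genes. lolal, which encodes the small BTB protein Batman of the Polycomb and Trithorax systems, passed in 14 tables, the most of the list. mamo, needed for female germ cell development, passed in 10 and bab1, a regulator of leg and abdominal pattern, in 9.

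mamo resembled lola in part. mamo scored 0.274, 0.192 and 0 at the 60%, 40% and 20% levels in the authors' deposited tables for rMATS. With MAJIQ, the authors' deposited table gave mamo 0.437 at the 20% level, where lola scored 0.554. With Cufflinks, the authors' deposited tables gave mamo 0.892 at the 60% level, 0.999637 at the 40% level, equal to lola, and 0.998743 at the 20% level, where lola had 0. bab1 passed in no table at the 20% level, and its JUM score there was 0.939 in the authors' deposited table.

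The other 13 BTB genes lie on the non-AS list, and 2 of them passed in a table. Over all 14595 non-AS-list genes 2.92% did. psq, a regulator of oogenesis and eye development, scored 1 and 0.999056 with JUM at the 60% and 40% levels and 0.177 at the 20% level in the authors' deposited table. br, the ecdysone-response gene broad, scored 0.981 with Cufflinks at the 60% level in the authors' deposited table. The remaining 11 passed in none of the 18 tables. Among these, fru has 14 intron chains and Trl 10, and Cufflinks alone listed them.

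Of 16 insulator proteins and their partners 4 (25%) lie on the AS list: mod(mdg4), lolal, BEAF-32 and Topors. Without mod(mdg4) it is 3 of 15, and the share over all 16595 genes was 12.1%. mod(mdg4) passed in 12 tables, lolal in 14 and BEAF-32 and Topors in 8 each. BEAF-32 binds boundary elements and Topors is a ubiquitin ligase that associates with the gypsy insulator. The direct partners of mod(mdg4) in that insulator, su(Hw) and Cp190, lie on the non-AS list, were listed by Cufflinks alone and passed in no table. None of the 12 non-AS-list genes of this list passed in any table, where 2.92% of all non-AS-list genes passed in 1 or more.

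**Figure D5:**
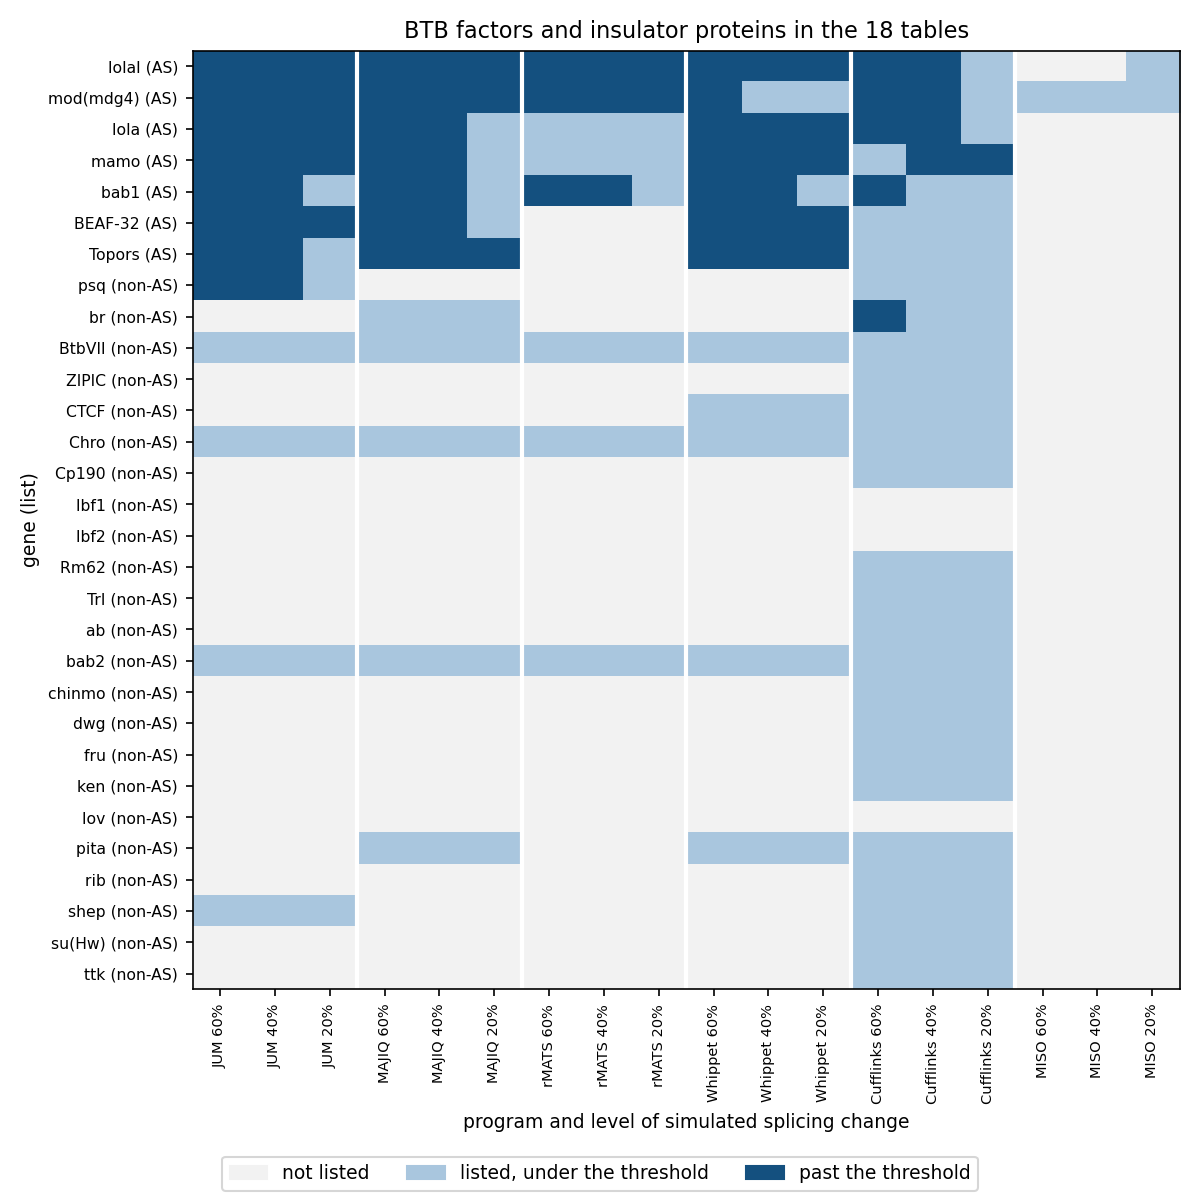
The BTB factors and insulator proteins (rows, with their list in brackets) in the 18 tables (columns, by program and level of simulated splicing change). Dark squares passed the threshold, light blue squares were listed under it, and grey squares were not listed. lolal has 14 dark squares, mod(mdg4) 12, and lola and mamo 10 each.

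Across all genes, the score pattern most like that of lola was that of Akt1, the kinase of insulin signalling. The measure was the mean absolute difference of the percentile rank among all genes of both lists over the 18 tables, with genes missing from a table tied last, and it was 0.387 percentile points for Akt1. Next came lilli (0.895), CG10103 (0.934), SppL (0.977) and CG42613 (0.999). lilli encodes a nuclear protein of the AF4 family and SppL a signal peptide peptidase-like protease. Akt1 was called alike in 17 of 18 tables, and in the authors' deposited table for rMATS it scored 0.108, 0 and 0.222. CG42613 was called alike in 16 tables, and lilli, CG10103 and SppL in 15. Unlike lola, CG10103 and SppL passed in rMATS at the 60% and 40% levels, with scores of 0.999948 or 1 in the authors' deposited tables. All 5 are on the AS list, and each has at most 8 intron chains and at most 4 introns from 1 donor. Tables share control libraries and depend on each other, so the measure is a description.

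For mod(mdg4) the nearest genes were CG14253 (1.17 percentile points), bif (1.21), mtd (1.24), lqf (1.28) and Nedd4 (1.32), all on the AS list. bif encodes an actin-associated protein of photoreceptors, lqf an endocytic epsin and Nedd4 a ubiquitin ligase. All 5 scored 1 with Whippet at each level in the authors' deposited table, unlike mod(mdg4). Each was listed by MISO at each level with a Bayes factor of at most 0.8 in the authors' deposited table. lola and mod(mdg4) differed from each other by 10.5 percentile points, against at most 1.32 for the genes named here. Most of this came from MISO, which did not list lola: the mean difference was 50.1 points over the 3 MISO tables and 2.54 points over the other 15. It was 5.62 points in rMATS and 6.13 in Whippet. These differences are compressed, because genes missing from a table tie last and any listed gene ranks above them. At the 60% level in rMATS lola, with a score of 0, lay at percentile 93.3. mod(mdg4), with a score of 1, lay at 98.9. A small difference in percentile therefore does not mean similar scores.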

How the data were processed

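Per the submitters' processing notes, dm3, Cufflinks and STAR 2.5.4b were used, in no stated role. How the reads were simulated and the scores derived is not given in the sources used here. For every program and level the authors deposited 1 score per gene, taken unchanged. The values fit a probability scale up to 1, apart from a few negative ones, and for MISO a Bayes factor, so 0.95 need not be equally strict in each program. The label columns matched the gene lists in all 18 tables.

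Since 3 knockdown and 3 control libraries are merged in a table, the precision per library is unknown and no test was made. The labels do not say whether simulated replicates differ beyond sampling. Members, lists, thresholds and subsets were chosen with earlier results of these data known. Named genes are the 2 members, their 5 nearest genes by percentile, AS-list or called genes of the 2 lists, and the 5 genes with the most intron chains. The precursor loci, the genes with 22 or more intron chains, pip, fru, Trl, su(Hw) and Cp190 were named after their values were seen. Symbols were matched to Ensembl release 115 by current (12402) or unique older symbol (3931), 98.4% of the genes. RefSeq gave older symbols and transcript counts. Thresholds and ranking were varied. Python 3.11.15, numpy 2.4.6, pandas 2.3.3 and matplotlib 3.10.9 were used. Structure counts and nearest genes were tested on simulated data.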

Additional observations from a re-analysis of the deposited data

How the results depend on the processing

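The number of tables past the threshold was 10 for lola and 12 for mod(mdg4). With limits of 0.9 and a Bayes factor of 5 it was 10 and 12, and with 0.99 and 20 it was 10 and 10. With the score that at most 5% of all non-AS-list genes reach it was 11 and 16, 3 of the 16 being MISO tables in which every listed gene passes. With 5% of the listed non-AS-list genes it was 11 and 12, lola gaining MAJIQ at the 20% level. Requiring a score above 0.95, a setting added after the data were seen, left lola at 10 and took mod(mdg4) to 11, without Whippet at the 60% level. The nearest genes depended on the measure: with percentiles taken over the genes of each program and level, 1 of the 5 named for lola and 3 of the 5 for mod(mdg4) were kept, and by differing calls 0 and 0. By calls, 6 genes matched lola in every table, and 4 genes differed from mod(mdg4) once. Counting transcripts in place of intron chains gave 15 genes with 22 or more, against 12. No paired analysis was possible because the tables hold 1 score per comparison and no column per library. For the same reason no replicate could be left out. Scores at the maximum or at 0 cannot be ranked among themselves.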

Other observations

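Within lola, towards its 5′ end, the annotation holds 4 small nucleolar RNA genes on the same strand, snoRNA:lola-a to snoRNA:lola-d, and 1 antisense RNA gene, CR45135, on the opposite strand. All lie on the non-AS list, and none passed in any of the 18 tables. This is the usual outcome, since only 2.92% of all non-AS-list genes passed in 1 or more. Genes that a program did not list count as not passed, here and in that share.

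The genes with the same calls as lola in every table, named after their values were seen, are CG13689, CG3967, CG4300, RpL21, Sur-8 and dia, and all 6 are on the AS list. RpL21 encodes a ribosomal protein and dia a formin that nucleates actin. They have at most 6 intron chains and at most 2 introns from 1 donor, against 24 and 18 in lola. CG4300 has negative rMATS scores in the authors' deposited tables, where lola has 0. The genes that differ from mod(mdg4) in 1 table, also named after their values were seen, are CG15445, CG8005, CG8026 and rumi. CG15445 and CG8026 passed in Whippet at the 40% level, where mod(mdg4) did not.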
